A study of Mus musculus with 12 samples.

Results

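Resting B (RB) cells stimulated through CD86 and TLR2 together were set against RB cells given no stimulus. The comparison holds 4 of the 12 arrays of the series, chosen by their labels: the 2 arrays labelled as stimulated with anti-CD86 and Pam2CSK4 (TLR2.CD86) and the 2 arrays labelled with no treatment. All RNA came from splenic B cells of female BALB/c mice, 6 weeks old, with 4 h as the time in the labels for every array. Per the methods, the cells were isolated by depletion of CD43-positive cells, and the anti-CD86 antibody was biotinylated and crosslinked with streptavidin. No array of the series is labelled as an isotype antibody control. Effects of antibody and streptavidin as such therefore cannot be told apart here from those of CD86. The remaining 8 arrays (Pam2CSK4 alone, anti-CD86 alone, anti-CD40, and anti-CD40 with Pam2CSK4, 2 arrays each) carry the same cells and helped to estimate the spread. The paper speaks of biological replicates for its array data, but the labels do not say whether the arrays of a group came from separate mice, so that the p-values measure only the spread between these arrays.

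CD86 is a costimulatory molecule of antigen-presenting cells that binds CD28 and CTLA-4 on T cells, and antibodies against it can also signal into the B cell. Pam2CSK4 is a synthetic diacylated lipopeptide sensed by TLR2 in a pair with TLR6. TLR2 signals through MyD88 and IRAK kinases to NF-kB, whose dimers induce genes of survival, adhesion and inflammation as well as inhibitors that shut the signal down again. A resting B cell that leaves quiescence commonly enlarges its nucleolus and its protein synthesis before it copies its DNA.

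The labelled cell type was checked against marker genes first. All 10 B cell marker genes were well above background on the 4 arrays, with a summed level of 678 and 760 on the unstimulated arrays and 756 and 660 with TLR2.CD86 (linear signal as a multiple of each array's 75th percentile). 4 of them were called higher, namely Fcer2a, Cd22, Cd79a and Pax5, and Cr2 was called lower, in each case with the slide term only (0 and 0 without the slide term, 3 to 4 and 0 to 1 in leave-one-out fits, 0 and 0 under median normalization). Genes of other cells were also measured, and both TLR2.CD86 arrays lay below both unstimulated arrays in the summed level of the myeloid, T cell, NK cell and dendritic cell markers. The summed level of 13 myeloid markers was 676 and 732 on the unstimulated arrays and 596 and 513 with TLR2.CD86. That of 10 T cell markers was 32.6 and 33.0 on the unstimulated arrays and 26.4 and 20.2 with TLR2.CD86, that of 8 NK cell markers was 18.8 and 18.6 on the unstimulated arrays and 12.9 and 10.8 with TLR2.CD86, and that of 8 dendritic cell markers was 27.4 and 28.7 on the unstimulated arrays and 20.5 and 15.3 with TLR2.CD86. Liver markers lay lower too, at 28.2 and 28.9 on the unstimulated arrays and 16.1 and 13.2 with TLR2.CD86. Platelet markers and those of mast cells and basophils had the same order, and pancreas, kidney and muscle markers the opposite one. Over all genes, the median log2 signal minus the unstimulated mean was -0.097 and -0.27 on TLR2.CD86 replicates 1 and 2. In bulk RNA, fewer cells of a type and less RNA of that type per cell cannot be told apart.

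Both unstimulated arrays lay on slide 1, and TLR2.CD86 had replicate 1 on slide 1 and replicate 2 on slide 2. Signals are log2 intensities minus the array's 75th percentile, and calls are probes with an adjusted p under 0.05 in limma with the slide as a term. Over 25967 bright probes, the 2 arrays of a group differed at the median by 0.0716 for unstimulated cells and 0.280 for TLR2.CD86. By the brightest probe, 1749 of 16662 genes (10.5%) were called higher and 4747 (28.5%) lower, and the median log2 fold change over all genes was -0.11. Of the called genes with at least a 2-fold difference, 137 were higher and 210 lower. Without the slide term 1.75% were called higher and 10.6% lower, and all 2052 of these genes were called in the same direction with it. The counts of higher and lower genes were 678 and 2126 when TLR2.CD86 replicate 1 was left out, 1438 and 3441 for its replicate 2, and 1099 and 2930 or 1083 and 2872 for unstimulated replicate 1 or 2. Median normalization in place of the 75th percentile gave 154 higher and 270 lower genes, and ended 183 of the 243 calls among the genes named by rule. It moved the median log2 fold change over all genes by -0.023 and reversed none of those calls. Noncoding RNA probes were shifted the other way, with 1781 of 8427 higher and 497 lower. A probe for the large ribosomal RNA, Rn28s1, singled out after its values were seen, rose from 0.021 and -0.051 to 1.77 and 2.26. The part of RNA composition in the lower median of the coding genes was not tested. Amounts by which genes rose or fell are log2 fold changes. For the gene lists below, parentheses give the counts of higher and lower members without the slide term, the ranges when any 1 of the 4 arrays was left out, and the counts under median normalization. The shares of members called are to be read beside the 10.5% and 28.5% of all genes. Where a call of a named gene was lost without an array, the log2 fold change without that array follows in parentheses.

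The 15 highest genes were taken from those that the paper does not name. Icam1, the adhesion ligand of the integrin LFA-1, had a log2 signal of 0.31 and 0.27 on the unstimulated arrays and 2.26 and 2.03 on the TLR2.CD86 arrays, a 3.74-fold increase (log2 fold change 1.90, SE 0.073, adjusted p = 0.000358). Pim1, a serine/threonine kinase that promotes survival, was at 2.77 and 2.88 on the unstimulated arrays and 4.55 and 4.23 on the TLR2.CD86 arrays (1.73, SE 0.076, adjusted p = 0.000358). Nfkbiz, the nuclear inhibitor-like cofactor IkB-zeta, was at 3.11 and 3.06 on the unstimulated arrays and 4.79 and 4.54 on the TLR2.CD86 arrays (1.68, SE 0.074, adjusted p = 0.000358). Saa3, an acute phase apolipoprotein, rose from near the detection limit, from -3.81 and -3.33 to -1.76 and -1.87 (1.82, SE 0.17, adjusted p = 0.00111). Il12b, which encodes the p40 subunit shared by IL-12 and IL-23, was at -0.026 and -0.034 on the unstimulated arrays and 1.24 and 0.97 on the TLR2.CD86 arrays (1.22, SE 0.078, adjusted p = 0.000672).

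Fbxo2, a ubiquitin ligase subunit that recognises glycoproteins, rose from a high level (4.74 and 4.24 on the unstimulated arrays and 6.39 and 7.14 on the TLR2.CD86 arrays), and its TLR2.CD86 arrays differed from each other by more than those of Icam1. These values are of its brightest probe, and its 3 probes, all of the same sign, ranged from 0.20 to 1.88. The transcription regulators Etv4, an ETS factor, and Tle6, of the Groucho co-repressor family, rose by 1.48 and 1.60 (adjusted p = 0.000596 and 0.00064). The same 15 included Atcay (1.71), Hap1, a partner of huntingtin (1.33), Lrrn3 (1.33), the semaphorin Sema6c (1.20) and Cdk5r1, the activator of the kinase CDK5 (1.24). Cdk5r1 was bright, with 3.92 and 3.99 on the unstimulated arrays and 5.17 and 5.04 on the TLR2.CD86 arrays, whereas Lrrn3 lay near the detection limit in unstimulated cells. The zinc finger gene Unk rose by 1.25 and the chemokine Cxcl1 by 1.63. The naming rule required a call with and without the slide term and no overlap between groups, and put genes called in every leave-one-out fit first. Under median normalization, which it did not use, all 15 were called, on the same arrays by which they were chosen.

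**Figure D1:**
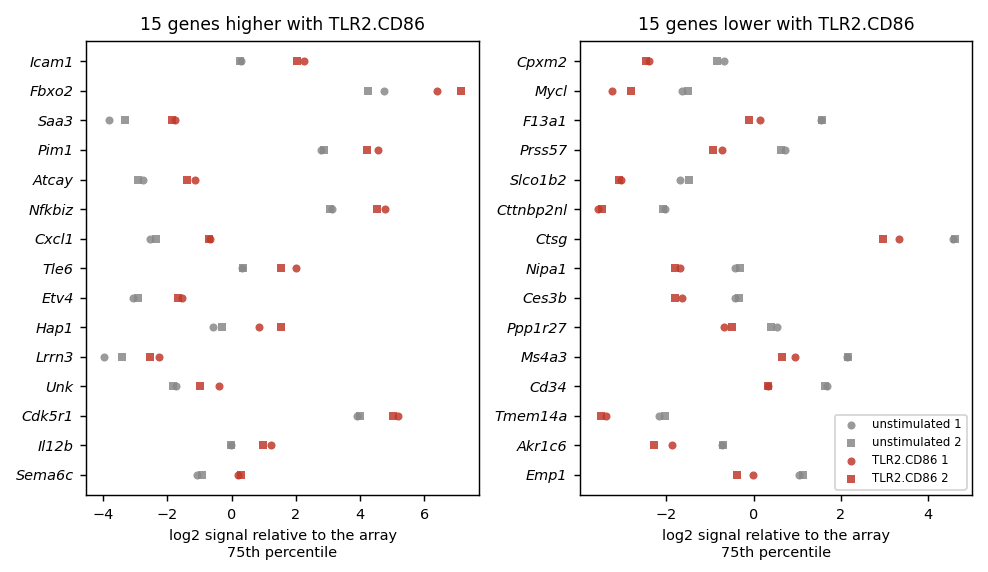
Log2 signal relative to the array's 75th percentile (x axis) on each of the 4 arrays for the 15 most raised and the 15 most lowered genes by the naming rule. Grey symbols are unstimulated and red symbols TLR2.CD86 arrays (circles replicate 1, squares replicate 2), and the groups do not overlap in any of these genes, as the rule required; Icam1 lies at 0.29 and 2.14 on average.

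The 15 lowest genes were led by Cpxm2, a carboxypeptidase-like protein, at -0.69 and -0.84 on the unstimulated arrays and -2.39 and -2.48 on the TLR2.CD86 arrays (-1.75, SE 0.13, adjusted p = 0.000699). Prss57, a neutrophil serine protease, was at 0.71 and 0.63 on the unstimulated arrays and -0.72 and -0.93 on the TLR2.CD86 arrays (-1.39, SE 0.057, adjusted p = 0.000358). Ctsg, which encodes cathepsin G, was at 4.59 and 4.62 on the unstimulated arrays and 3.33 and 2.98 on the TLR2.CD86 arrays (-1.30, SE 0.072, adjusted p = 0.000544). Ms4a3, Cd34 and the coagulation factor gene F13a1 fell by 1.27, 1.27 and 1.42 on the log2 scale. In each the TLR2.CD86 arrays lay below both unstimulated arrays, as the naming rule required. The rest included Mycl, the MYC paralog (-1.43), Slco1b2, Ces3b and Akr1c6, known from liver (-1.39, -1.28 and -1.24), the magnesium transporter gene Nipa1 (-1.30) and the membrane protein genes Emp1 (-1.24) and Tmem14a (-1.27). Cttnbp2nl fell by 1.39 and the phosphatase regulator gene Ppp1r27 by 1.27. Under median normalization all 15 of these were called too, again on the arrays by which they were chosen.

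Of the myeloid markers, 0 of the 13 tested members were called higher and 6 lower (0 and 6 without the slide term, 0 to 1 and 5 to 6 in leave-one-out fits, 0 and 2 under median normalization, 0 higher at an unadjusted p under 0.05 in limma, 1 and 6 under quantile normalization). Mpo, which encodes myeloperoxidase, was bright at 7.24 and 7.27 on the unstimulated arrays and 6.10 and 5.71 on the TLR2.CD86 arrays and fell by 1.18 (adjusted p = 0.000404). Elane (-1.12), Adgre1 (-0.80), Itgam (-0.77), Csf1r (-0.64) and S100a8 (-0.57) fell too, whereas Lyz2 (0.065), S100a9 (0.089), Cd14 (0.13), Cd68 (-0.15), Fcgr3 (-0.14), C1qb (0.33) and C1qc (0.11) were not called. C1qc was called higher without TLR2.CD86 replicate 1 (0.81) and lower without TLR2.CD86 replicate 2 (-0.32). Among NK cell genes Nkg7 (-0.67), Gzma (-0.59), Klrb1c (-0.57) and Gzmb (-0.50) fell, and 0 of 8 rose (0 and 4 without the slide term, 0 to 1 and 3 to 4 in leave-one-out fits, 0 and 0 under median normalization, 1 higher at an unadjusted p under 0.05 in limma). Of T cell genes 3 of 10 fell, Thy1 by 0.62, and 1 rose (1 and 1 without the slide term, 0 to 1 and 1 to 2 in leave-one-out fits, 0 and 0 under median normalization), shares of 30% and 10% near those of all genes (28.5% and 10.5%), whereas the defining gene Cd3e was at 0.15 and not called. In dendritic cell genes Clec9a fell by 0.99 and Zbtb46 rose by 1.05, with 4 of 8 lower and 1 higher (1 and 1 without the slide term, 1 and 2 to 4 in leave-one-out fits, 1 and 1 under median normalization). Calls were lost without unstimulated replicate 1 for Csf1r (-0.64) and Klrb1c (-0.52), without TLR2.CD86 replicate 1 for Csf1r (-0.75) and Klrb1c (-0.41), without unstimulated replicate 2 for Csf1r (-0.64) and without TLR2.CD86 replicate 2 for Csf1r (-0.58). The part of these cells in the lowest genes was not tested. Among T cell genes well above background on all 4 arrays, 0 of 9 were called higher and 4 lower, so that the higher T cell call depends on the background filter.

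Markers of further origins had mixed values. Of erythroid genes 3 were higher, the largest value being that of Alas2 (0.42, whose groups overlapped), and 4 lower, among them Epor (-0.68), with 8 tested (0 and 4 without the slide term, 0 to 3 and 4 in leave-one-out fits, 0 and 0 under median normalization). Of platelet genes 2 of 6 were lower, Pf4 by 0.89 and Gp9 by 0.53, and of mast cell and basophil genes 3 of 5, among them Kit (-0.50) and Mcpt8 (-0.56). Higher and lower platelet calls were 0 and 2 without the slide term, 0 and 1 to 2 in leave-one-out fits, 0 and 0 under median normalization, 0 higher at an unadjusted p under 0.05 in limma. Those of mast cells and basophils were 0 and 2 without the slide term, 0 and 2 in leave-one-out fits, 0 and 0 under median normalization, 0 higher at an unadjusted p under 0.05 in limma. Among plasma cell genes Tnfrsf17 (-0.87), Prdm1 (-0.49) and Xbp1 (-0.41) were lower and Slamf7 (0.26, groups overlapping) higher, with 6 tested (0 and 1 without the slide term, 0 to 1 and 2 in leave-one-out fits, 0 and 0 under median normalization). Liver genes included Ahsg, which fell by 1.16 (adjusted p = 0.000961) and made 3 of 7 with Fgb (-0.64) and Mup10 (-0.88), with 0 higher (0 and 3 without the slide term, 0 and 2 to 3 in leave-one-out fits, 0 and 1 under median normalization, 0 higher at an unadjusted p under 0.05 in limma). Skeletal muscle genes gave 2 higher and 1 lower of 6 (0 and 0 without the slide term, 2 to 3 and 0 to 1 in leave-one-out fits, 1 and 0 under median normalization). Exocrine pancreas genes gave 0 and 1 of 5 (0 and 1 without the slide term, 0 and 0 to 1 in leave-one-out fits, 0 and 0 under median normalization, 0 higher at an unadjusted p under 0.05 in limma). The only kidney gene tested, Aqp2, was not called. Marker calls were lost without TLR2.CD86 replicate 1 for Alas2 (0.41), Slamf7 (0.20), Gp9 (-0.42) and Prdm1 (-0.66), without unstimulated replicate 1 for Slamf7 (0.24), Gp9 (-0.45) and Prdm1 (-0.49), without unstimulated replicate 2 for Slamf7 (0.29), Fgb (-0.60) and Prdm1 (-0.49) and without TLR2.CD86 replicate 2 for Prdm1 (-0.38).

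NF-kB subunits and their feedback genes were called mostly higher. Of the subunits, 3 of the 5 tested members were called higher and 0 lower (0 and 0 without the slide term, 3 and 0 in leave-one-out fits, 0 and 0 under median normalization, 0 lower at an unadjusted p under 0.05 in limma). Nfkb1 (p105/p50, 0.57), Rela (p65, 0.53) and Nfkb2 (p100/p52, 0.48) were the called members. Rel, which encodes c-Rel, was at -0.19 and Relb at 0.087, neither of them called. On slide 1 alone the median of the subunits was 0.48 above the unstimulated mean with TLR2.CD86, against 0.27 with Pam2CSK4 and 0.11 with anti-CD86. The arrays of the same groups on slide 2 gave 0.053, -0.12 and -0.30 before the slide term. Of the feedback genes, 9 of the 17 tested members were called higher and 1 lower (3 and 0 without the slide term, 5 to 8 and 0 in leave-one-out fits, 2 and 0 under median normalization). Beside Nfkbiz and Nfkbid (1.46), Nfkbie, which encodes IkB-epsilon, was at 4.39 and 4.36 on the unstimulated arrays and 4.90 and 4.89 on the TLR2.CD86 arrays (0.51, SE 0.049, adjusted p = 0.00113). Traf3, a brake on noncanonical NF-kB signalling, rose by 0.64 with the slide term only. The Nfkbia probe (IkB-alpha), saturated on all 4 arrays, gave 0.091, and the A20 gene Tnfaip3 (0.14) and Birc3 (0.30) were not called. The list's median was 0.28, beside -0.11 over all genes.

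Upstream sequence was read for members of these and further groups, since kB sites are the DNA elements that NF-kB dimers bind. Il2ra and Bcl2l1 are in none of the groups counted below and were added by choice. The spellings searched were GGGNNNTTCC and GGAAATTCC, on both strands and with overlaps counted as found, in the 250 bases before each start in RefSeq (GRCm38.p6). They occurred in 4.79% of all 32851 windows and in 6.25% of the 10238 tested genes that have a window. Among feedback genes 7 of the 14 with a window held one, among the subunits 2 of 3, among the chemokines tested 4 of 10, among the 15 highest genes 3 of 10, among the 15 lowest 2 of 14, and among the oxidative phosphorylation genes described below 2 of 65. Members holding a match included Rel and Tnfaip3, which were not called, and Ccl9, which fell. A match is a description of the letters and not of binding. The windows below are a selection from genes called higher (Traf3 and Nfkb2 with the slide term only), with the matches in capitals, 5′ to 3′ on the gene's strand:
Icam1 (GRCm38.p6, chr9:21015762-21015820, plus strand): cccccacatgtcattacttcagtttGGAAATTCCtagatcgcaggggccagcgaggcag
Cxcl1 (GRCm38.p6, chr5:90891131-90891209, plus strand): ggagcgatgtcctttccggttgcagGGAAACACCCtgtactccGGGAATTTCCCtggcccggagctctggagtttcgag
Cxcl2 (GRCm38.p6, chr5:90903777-90903855, plus strand): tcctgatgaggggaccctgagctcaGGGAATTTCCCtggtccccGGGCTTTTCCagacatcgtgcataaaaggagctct
Nfkbie (GRCm38.p6, chr17:45555569-45555628, plus strand): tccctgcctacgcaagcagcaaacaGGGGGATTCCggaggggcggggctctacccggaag
Nfkbid (GRCm38.p6, chr7:30422200-30422259, plus strand): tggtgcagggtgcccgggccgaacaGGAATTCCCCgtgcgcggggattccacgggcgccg
Traf3 (GRCm38.p6, chr12:111166335-111166369, plus strand): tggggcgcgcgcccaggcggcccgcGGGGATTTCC
Nfkb2 (GRCm38.p6, chr19:46305680-46305739, plus strand): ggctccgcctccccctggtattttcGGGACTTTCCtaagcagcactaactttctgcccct
Il2ra (GRCm38.p6, chr2:11642567-11642626, plus strand): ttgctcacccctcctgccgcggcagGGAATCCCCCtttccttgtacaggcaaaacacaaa
Bcl2l1 (GRCm38.p6, chr2:152830901-152830960, minus strand): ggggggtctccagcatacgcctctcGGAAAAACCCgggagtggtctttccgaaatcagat
The windows of the neighbouring chemokine genes Cxcl1 and Cxcl2 each held 4 matches, counting overlapping and opposite-strand spellings, within 89 and 97 bases of the start. Nfkbia, whose probe was saturated so that its missing call gives no comparison, also held 2 such matches:
Nfkbia (GRCm38.p6, chr12:55492648-55492701, minus strand): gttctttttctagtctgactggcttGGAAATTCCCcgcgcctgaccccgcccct

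Within the TLR pathway the receptors and adaptors did not move one way: 6 of the 26 tested members were called higher and 9 lower (2 and 0 without the slide term, 2 to 5 and 1 to 5 in leave-one-out fits, 2 and 0 under median normalization). Tlr1, a partner of TLR2 for triacylated lipopeptides, was at 0.59 and 0.53 on the unstimulated arrays and 1.61 and 1.34 on the TLR2.CD86 arrays (1.03, SE 0.069, adjusted p = 0.000672). Tlr2 itself was at 2.52 and 2.59 on the unstimulated arrays and 2.70 and 2.46 on the TLR2.CD86 arrays (0.16, SE 0.064, adjusted p = 0.106), a difference that did not pass the test. Tlr6 was at -0.041 and not called, and Tlr4 was at -0.53, called lower with the slide term only. The kinase gene Irak4 rose by 1.02 but was well above background on only 1 of 2 unstimulated arrays, and Tirap (0.53), an adaptor that bridges TLR2 to MyD88, was called higher with the slide term only. The Tirap call was lost without unstimulated replicate 1 (0.49) and without TLR2.CD86 replicate 1 (0.32).

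Secreted signals were called in both directions, as all genes were (10.5% higher and 28.5% lower). The shares were 30.8% and 15.4% for cytokines, and 31.25% and 31.25% for chemokines. Of the cytokines, 8 of the 26 tested members were called higher and 4 lower (3 and 2 without the slide term, 5 to 6 and 2 to 3 in leave-one-out fits, 3 and 1 under median normalization). Il12b rose as above, Tnf by 1.44 and Clcf1 by 1.50, and Ebi3 (0.63) and Il10 (0.49) were called higher with the slide term only. Tnfsf13, which encodes APRIL, was at -1.27 and -1.16 on the unstimulated arrays and -2.14 and -2.59 on the TLR2.CD86 arrays, a fall of 1.07 (SE 0.18, adjusted p = 0.00552). Csf2 passed the background limit on each TLR2.CD86 array and on neither unstimulated one, and was at least 1.08-fold higher by its bound, without being called (adjusted p = 0.265). For such a gene the brighter group's mean was set against the higher of each dim array's own signal and its lowest signal well above background. Of the chemokines, 5 of the 16 tested members were called higher and 5 lower (4 and 3 without the slide term, 3 to 4 and 3 to 4 in leave-one-out fits, 3 and 2 under median normalization). Cxcl2, a neutrophil attractant like Cxcl1, was at -1.11 and -1.12 on the unstimulated arrays and -0.41 and -0.35 on the TLR2.CD86 arrays (0.80, SE 0.18, adjusted p = 0.0155), and the membrane-bound Cx3cl1 rose by 1.71. Xcl1 (-0.63), Ccl5 (-0.51) and Ccl9 (-0.48) fell, while Ccl3 rose by 0.28 with the slide term only. Ccl2, above background in unstimulated cells alone, was at least 1.44-fold lower by this bound, but not called (adjusted p = 0.0743). The calls of these chemokines were lost without unstimulated replicate 1 for Cxcl2 (0.81) and Ccl3 (0.26), without TLR2.CD86 replicate 1 for Cxcl2 (0.97) and Ccl3 (0.30), without unstimulated replicate 2 for Cxcl2 (0.79) and Ccl3 (0.29) and without TLR2.CD86 replicate 2 for Cxcl2 (0.70) and Ccl3 (0.26).

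Receptors for cytokines were called in both directions too, beside 10.5% higher and 28.5% lower of all genes. Shares were 26.9% and 30.8% for interleukin receptors, 6.67% and 26.7% for TNF receptors, and 23.8% and 19.0% for SOCS, STAT and JAK genes. Of the interleukin receptors, 7 of the 26 tested members were called higher and 8 lower (4 and 2 without the slide term, 5 to 7 and 2 to 4 in leave-one-out fits, 2 and 1 under median normalization). Beside Il2ra (1.71), the common gamma chain Il2rg was at 2.00 and 1.89 on the unstimulated arrays and 2.80 and 2.44 on the TLR2.CD86 arrays (0.81, SE 0.082, adjusted p = 0.0013), and Il21r, which pairs with it, was at 0.96 and 1.00 on the unstimulated arrays and 2.03 and 1.71 on the TLR2.CD86 arrays (1.05, SE 0.061, adjusted p = 0.000596). Il4ra (0.51) was called higher with the slide term only. Lifr fell by 1.14 by its brightest probe, and 1 of its 5 probes had the other sign. In the TNF receptor superfamily, 1 of the 15 tested members was called higher and 4 lower (0 and 4 without the slide term, 0 and 4 in leave-one-out fits, 0 and 1 under median normalization). Ltbr, the lymphotoxin-beta receptor, was at 1.24 and 1.24 on the unstimulated arrays and 0.24 and 0.35 on the TLR2.CD86 arrays (-1.01, SE 0.062, adjusted p = 0.00064), and Tnfrsf21, Tnfrsf17 (BCMA) and Tnfrsf1a fell by 0.90, 0.87 and 0.83. Tnfrsf13c (BAFF receptor) was at 0.010 and Tnfrsf13b (TACI) at 0.28, neither called. Among SOCS, STAT and JAK genes, 5 of the 21 tested members were called higher and 4 lower (2 and 0 without the slide term, 3 to 5 and 0 to 2 in leave-one-out fits, 0 and 0 under median normalization). Tyk2 rose by 0.83 (adjusted p = 0.00131) and Stat4 by 0.76, whereas the feedback inhibitor Socs3 was at -0.032 and not called. The Stat4 call was lost without unstimulated replicate 1 (0.77) and without unstimulated replicate 2 (0.75).

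Of the anti-apoptotic members of the BCL2 family, 3 of the 7 tested members were called higher and 1 lower (3 and 1 without the slide term, 3 and 0 to 1 in leave-one-out fits, 1 and 0 under median normalization). Beside Bcl2l1 (2.33), the A1 paralogs Bcl2a1c (0.89) and Bcl2a1a (0.75) rose. These genes are nearly identical and their probes may share signal. Bcl2 was at -0.070 and Mcl1 at 0.11, neither called, and Bcl2l2 (BCL-w) fell by 0.56. Of the pro-apoptotic members, 1 of the 10 tested members was called higher and 2 lower (0 and 2 without the slide term, 0 to 1 and 2 in leave-one-out fits, 0 and 0 under median normalization), shares not above the 10.5% and 28.5% of all genes. Bbc3, which encodes the BH3-only protein PUMA, was at 5.67 and 5.61 on the unstimulated arrays and 5.07 and 4.83 on the TLR2.CD86 arrays (-0.55, SE 0.068, adjusted p = 0.00217), Pmaip1 (NOXA) fell by 0.75, and Bcl2l11 (BIM) was at 0.17, not called. Of p53 target genes, 4 of the 27 tested members were called higher and 10 lower (0 and 5 without the slide term, 1 to 2 and 5 to 9 in leave-one-out fits, 0 and 0 under median normalization). These shares, 14.8% and 37.0%, stood beside 10.5% and 28.5% of all genes. Ei24 fell by 0.50 and Plk2 by 0.53, and Cdkn1a, the CDK inhibitor p21, was at -0.44 (called lower with the slide term only). In leave-one-out fits the call was lost without TLR2.CD86 replicate 1 for Bcl2l2 (-0.38), Plk2 (-0.48) and Cdkn1a (-0.43).

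**Figure D2:**
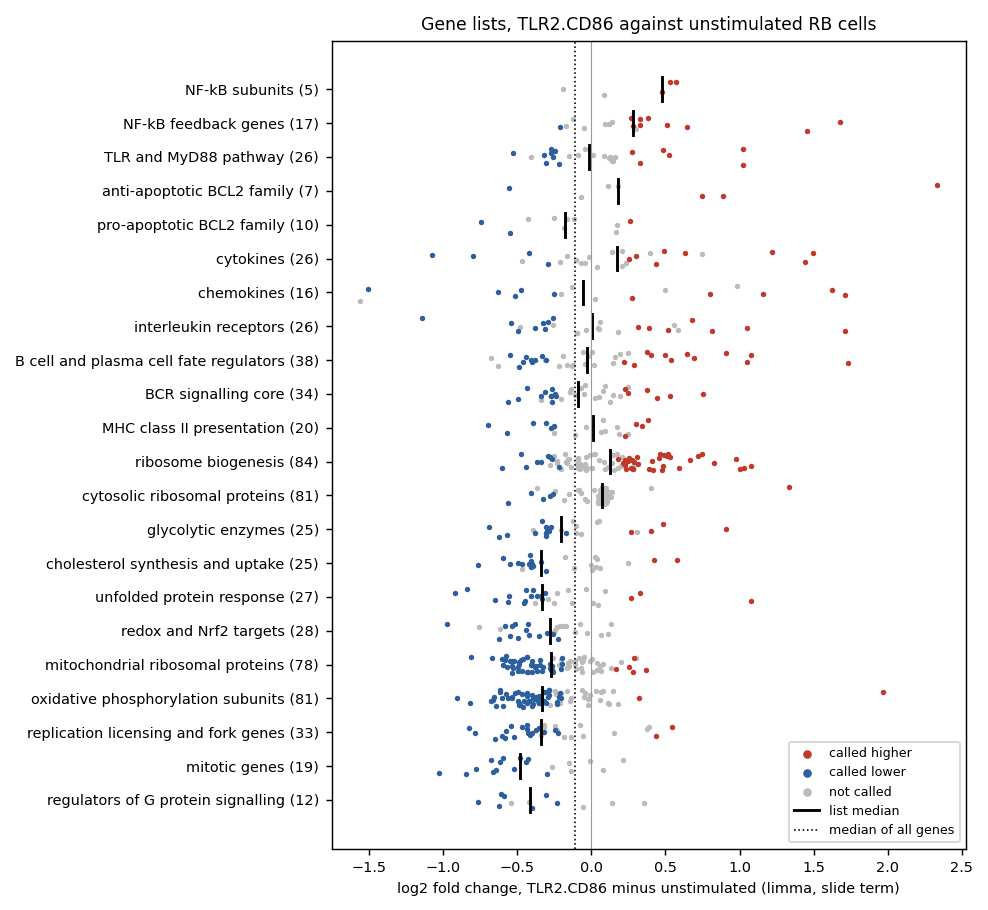
Log2 fold change of TLR2.CD86 against unstimulated cells (x axis, limma with the slide term) for each tested member of 22 gene lists, with the number tested in parentheses. Red points were called higher, blue lower and grey not called, black bars are list medians and the dotted line is the median over all genes at -0.11; ribosome biogenesis lies above that line, and oxidative phosphorylation, replication and mitotic genes lie below it.

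Among the lists with more higher than lower calls, ribosome biogenesis had the most members. Of these nucleolar genes, 34 of the 84 tested members were called higher and 9 lower (3 and 3 without the slide term, 11 to 29 and 4 to 6 in leave-one-out fits, 2 and 0 under median normalization), with a median of 0.13. Rrp1b was at -0.84 and -0.74 on the unstimulated arrays and 0.35 and -0.13 on the TLR2.CD86 arrays (1.08, SE 0.10, adjusted p = 0.00113), and Rrp12, which acts in export of the small subunit precursor, was at -1.11 and -1.15 on the unstimulated arrays and -0.030 and -0.36 on the TLR2.CD86 arrays (1.03, SE 0.096, adjusted p = 0.00112). Mybbp1a, a nucleolar protein, rose by 0.82, and Ncl (nucleolin) was at 0.25, called with the slide term only, with overlapping groups and 1 of 4 probes of opposite sign. The histone chaperone gene Npm3 fell by 0.60 and Rrn3, an initiation factor of RNA polymerase I, by 0.44. Before the slide term the list's median against unstimulated cells was 0.17 on TLR2.CD86 replicate 1 and -0.15 on replicate 2, where that of all genes was -0.27. The Ncl call was lost without unstimulated replicate 1 (0.25), without TLR2.CD86 replicate 1 (0.20) and without unstimulated replicate 2 (0.26). Cytosolic ribosomal proteins, the products these factors assemble, had few calls: 1 of the 81 tested members was called higher and 5 lower (0 and 1 without the slide term, 0 to 2 and 2 in leave-one-out fits, 1 and 0 under median normalization), with a median of 0.074. The unstimulated arrays themselves lay at -0.081 and 0.081 around their mean in this list's median, beside -0.0040 and 0.0040 over all genes. The few calls therefore do not show that the list was unchanged. Rpl27a fell by 0.56 and Fau was at 0.065, while Rpl21 (1.33), called higher with the slide term only, had another probe of opposite sign. The Rpl21 call was lost without TLR2.CD86 replicate 1 (1.30).

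In the MYC network, 2 of the 9 tested members were called higher and 1 lower (0 and 0 without the slide term, 2 and 0 to 1 in leave-one-out fits, 0 and 0 under median normalization), and Myc (0.62) and its antagonist Mxd1 (0.69) were among the higher calls. Of aminoacyl-tRNA synthetases, 6 of the 23 tested members were called higher and 6 lower (0 and 2 without the slide term, 1 to 5 and 3 in leave-one-out fits, 0 and 0 under median normalization). Dars, the aspartyl enzyme, fell by 0.83 (adjusted p = 0.00134) and Nars by 0.38, and Aars was at -0.042 and not called. Of translation initiation factors, 5 of the 42 tested members were called higher and 12 lower (0 and 3 without the slide term, 1 to 6 and 3 to 9 in leave-one-out fits, 0 and 0 under median normalization), shares of 11.9% and 28.6% near the 10.5% and 28.5% of all genes. Eif4ebp1 fell by 0.48, Eif3m by 0.49 and Eif4a2 by 0.46, and the cap-binding protein gene Eif4e was at -0.35, called lower with the slide term only. Among PI3K, AKT and mTOR genes, 3 of the 27 tested members were called higher and 5 lower (1 and 3 without the slide term, 1 to 3 and 2 to 5 in leave-one-out fits, 0 and 0 under median normalization). Mtor was at -1.37 and -1.44 on the unstimulated arrays and -0.66 and -0.71 on the TLR2.CD86 arrays (0.78, SE 0.12, adjusted p = 0.00423), and the mTORC1 inhibitors Ddit4 (-0.73) and Sesn3 (-0.55) fell. Calls were lost without TLR2.CD86 replicate 1 for Nars (-0.40), Eif3m (-0.43), Eif4e (-0.35) and Sesn3 (-0.45), without unstimulated replicate 2 for Eif4e (-0.32) and without unstimulated replicate 1 for Sesn3 (-0.54).

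With the slide term and the 75th percentile scaling, more genes of the mitochondrion were called lower than higher. Of oxidative phosphorylation subunits, 2 of the 81 tested members were called higher and 55 lower (1 and 16 without the slide term, 1 to 2 and 31 to 47 in leave-one-out fits, 1 and 0 under median normalization). Their median log2 fold change was -0.34, beside -0.11 over all genes, and the share called lower was 67.9%, beside 28.5% of all genes. Ndufb2, of complex I, was at 4.53 and 4.46 on the unstimulated arrays and 3.81 and 3.59 on the TLR2.CD86 arrays (-0.67, SE 0.058, adjusted p = 0.000987). Cox6a2 and Cox7a1, of cytochrome oxidase, fell by 0.91 and 0.82, and Ndufa13 by 0.68. Atp5a1, of the ATP synthase, was at -0.21, called with the slide term only. Cox4i2 went the other way and was at least 1.34-fold higher, with signal over background on each TLR2.CD86 array and on neither unstimulated one. Its call rests on unstimulated values below background, and among members well above background on all 4 arrays 1 of 80 was called higher. Mitochondrial ribosomal proteins had a similar direction: 5 of the 78 tested members were called higher and 44 lower (0 and 17 without the slide term, 0 to 2 and 20 to 32 in leave-one-out fits, 0 and 0 under median normalization), with a median of -0.27. Mrpl55 was at 3.23 and 3.32 on the unstimulated arrays and 2.47 and 2.19 on the TLR2.CD86 arrays (-0.81, SE 0.097, adjusted p = 0.00197), and Mrpl57, Mrpl54 and Mrps36 fell by 0.67, 0.60 and 0.60. Single calls were lost without unstimulated replicate 2 for Cox7a1 (-0.74) and Atp5a1 (-0.21), without unstimulated replicate 1 for Atp5a1 (-0.21) and without TLR2.CD86 replicate 1 for Atp5a1 (-0.13) and Mrps36 (-0.59). On slide 1 alone the oxidative phosphorylation median was -0.33 with TLR2.CD86, -0.34 with anti-CD86 and -0.14 with Pam2CSK4, relative to unstimulated cells. The slide 2 arrays of these groups gave -0.60, -0.51 and -0.38, before the slide term.

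**Figure D3:**
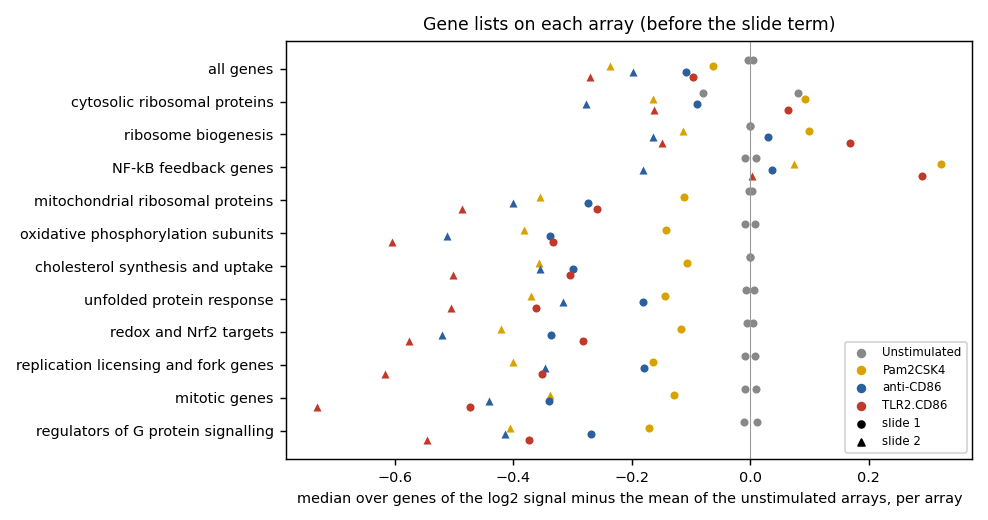
Median over the members of a list of the log2 signal minus the mean of the unstimulated arrays (x axis), for each array of the unstimulated, Pam2CSK4, anti-CD86 and TLR2.CD86 groups, before the slide term. Circles are slide 1 and triangles slide 2; oxidative phosphorylation lies at -0.33 and -0.60 on the TLR2.CD86 arrays, and the slide 2 array lies below the slide 1 array in each stimulated group for every list shown.

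Of redox genes, 0 of the 28 tested members were called higher and 14 lower (0 and 6 without the slide term, 0 and 9 to 13 in leave-one-out fits, 0 and 1 under median normalization, 0 higher at an unadjusted p under 0.05 in limma, 3 and 13 under quantile normalization). Gsr, which encodes glutathione reductase, was at 1.08 and 1.16 on the unstimulated arrays and 0.27 and -0.38 on the TLR2.CD86 arrays (-0.97, SE 0.11, adjusted p = 0.00173), and catalase (Cat), thioredoxin (Txn1) and transaldolase (Taldo1) fell by 0.62, 0.59 and 0.55. Hmox1, a classic Nrf2 target, was at -0.17 and not called. Among glycolytic genes, 4 of the 25 tested members were called higher and 12 lower (1 and 3 without the slide term, 1 to 4 and 4 to 8 in leave-one-out fits, 0 and 0 under median normalization). Eno2, the gamma enolase, rose from -2.42 and -2.67 to -1.68 and -1.91 (0.91, SE 0.095, adjusted p = 0.0014). Ldhb fell by 0.57, and the pyruvate dehydrogenase kinases Pdk1 and Pdk2 by 0.69 and 0.62, where a dim probe of Pdk2 had the opposite sign. Hexokinase 2 (Hk2) was at -0.21 and not called. Of nutrient transporters, 4 of the 25 tested members were called higher and 6 lower (1 and 3 without the slide term, 0 to 3 and 3 to 6 in leave-one-out fits, 0 and 0 under median normalization). The cationic amino acid transporter Slc7a1 rose by 0.91, and the lactate transporter Slc16a1, the leucine transporter Slc7a5 and the glucose transporter Slc2a1 fell by 0.70, 0.51 and 0.43. Calls were not kept without unstimulated replicate 1 for Pdk1 (-0.73) and Slc7a1 (0.90), without TLR2.CD86 replicate 1 for Pdk1 (-0.62) and Slc7a1 (0.72) and without unstimulated replicate 2 for Pdk1 (-0.65).

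Genes for the synthesis of sterols and nucleotides had more lower than higher calls. Of cholesterol genes, 2 of the 25 tested members were called higher and 13 lower (0 and 5 without the slide term, 2 and 6 to 9 in leave-one-out fits, 0 and 0 under median normalization), with a median of -0.34. Tm7sf2, a sterol reductase, was at -0.023 and -0.12 on the unstimulated arrays and -0.81 and -0.91 on the TLR2.CD86 arrays (-0.76, SE 0.088, adjusted p = 0.00176), and Idi1 and Msmo1 fell by 0.55 and 0.49. Dhcr7 fell by 0.60 by its brightest probe, with a dim probe of opposite sign. Of nucleotide and polyamine genes, 5 of the 40 tested members were called higher and 18 lower (0 and 9 without the slide term, 2 to 5 and 8 to 12 in leave-one-out fits, 0 and 0 under median normalization). Tyms, which makes thymidylate, was at 2.57 and 2.53 on the unstimulated arrays and 1.63 and 1.40 on the TLR2.CD86 arrays (-0.94, SE 0.090, adjusted p = 0.00114), and Rrm2, of ribonucleotide reductase, fell by 0.64, Adssl1 by 0.68 and Mthfd1l by 0.63. The purine enzymes Gart (0.72) and Adsl (0.58) were called higher with the slide term only. Odc1, which starts polyamine synthesis, was at -0.30 by its brightest probe (called lower with the slide term only), and another probe of it was called higher. The Odc1 call was lost without unstimulated replicate 1 (-0.31), without TLR2.CD86 replicate 1 (-0.37), without unstimulated replicate 2 (-0.28) and without TLR2.CD86 replicate 2 (-0.25).

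Genes of DNA replication and mitosis had more lower than higher calls. Of mitotic genes, 0 of the 19 tested members were called higher and 13 lower (0 and 11 without the slide term, 0 and 8 to 11 in leave-one-out fits, 0 and 1 under median normalization, 1 higher at an unadjusted p under 0.05 in limma), with a median of -0.48 (-0.51 under median normalization). Kif20a, a mitotic kinesin, was at 0.37 and 0.48 on the unstimulated arrays and -0.57 and -0.69 on the TLR2.CD86 arrays (-1.03, SE 0.069, adjusted p = 0.000672). Cyclin A2 (Ccna2) was at 1.66 and 1.68 on the unstimulated arrays and 0.89 and 0.50 on the TLR2.CD86 arrays (-0.84, SE 0.065, adjusted p = 0.000814), and Nusap1, Aurka and Mki67 fell by 0.78, 0.68 and 0.43. Of replication genes, 2 of the 33 tested members were called higher and 19 lower (0 and 9 without the slide term, 2 and 11 to 16 in leave-one-out fits, 0 and 0 under median normalization), with a median of -0.34 (-0.36 under median normalization). Rfc5, of the clamp loader, fell by 0.78, Pola1, of DNA polymerase alpha, by 0.83, and the GINS subunits Gins3 and Gins1 by 0.65 and 0.60. The helicase subunit Mcm2 was at 0.16 and not called, and Mcm3 (0.55) was called higher with the slide term only. Of cyclins, CDKs and their inhibitors, 4 of the 26 tested members were called higher and 10 lower (0 and 3 without the slide term, 1 to 2 and 5 to 7 in leave-one-out fits, 0 and 1 under median normalization). Cyclin D2 (Ccnd2) was at 2.83 and 2.84 on the unstimulated arrays and 3.69 and 3.19 on the TLR2.CD86 arrays (0.82, SE 0.066, adjusted p = 0.000836), called with the slide term only. The repressor E2f8 was at -0.58 and -0.49 on the unstimulated arrays and -1.55 and -1.59 on the TLR2.CD86 arrays (-1.01, SE 0.061, adjusted p = 0.0006), and E2f6 and the CDK inhibitor gene Cdkn2c fell by 0.51 and 0.55. Calls in these lists were lost without TLR2.CD86 replicate 1 for Mki67 (-0.40) and Pola1 (-0.67), without unstimulated replicate 1 for Cdkn2c (-0.53) and without unstimulated replicate 2 for Cdkn2c (-0.57).

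Of unfolded protein response genes, 3 of the 27 tested members were called higher and 14 lower (1 and 6 without the slide term, 1 to 2 and 9 to 11 in leave-one-out fits, 1 and 0 under median normalization), with a median of -0.33. The disulfide isomerase gene Pdia4 was at 2.93 and 3.02 on the unstimulated arrays and 2.09 and 1.61 on the TLR2.CD86 arrays (-0.92, SE 0.069, adjusted p = 0.000771), asparagine synthetase (Asns) fell by 0.84, and Sdf2l1 by 0.65. Hspa5, which encodes BiP, was at -0.25 and not called, and Ppp1r15a (GADD34) rose by 1.08. Of chaperones, 3 of the 32 tested members were called higher and 10 lower (0 and 1 without the slide term, 1 to 2 and 2 to 6 in leave-one-out fits, 0 and 0 under median normalization). Cct6a fell by 0.58, whereas Cct3, of the same chaperonin, was at 0.60 and called higher with the slide term only. Dnajb6 was at -0.46, also called with the slide term only, and the saturated Hsp90aa1 probe was at 0.014. Of proteasome subunits, 3 of the 36 tested members were called higher and 10 lower (0 and 1 without the slide term, 0 to 2 and 3 to 6 in leave-one-out fits, 0 and 0 under median normalization). Psma1 fell by 0.40, and Psmb6 (-0.41) and the activator Psme3 (0.43) were called with the slide term only. The shares of chaperones (9.38% and 31.2%) and proteasome subunits (8.33% and 27.8%) called higher and lower were near those of all genes (10.5% and 28.5%). Folding and proteasome calls were lost without unstimulated replicate 2 for Sdf2l1 (-0.59), Dnajb6 (-0.53), Psma1 (-0.39) and Psme3 (0.42), without unstimulated replicate 1 for Dnajb6 (-0.39) and Psme3 (0.44), without TLR2.CD86 replicate 1 for Dnajb6 (-0.39) and Psme3 (0.31) and without TLR2.CD86 replicate 2 for Dnajb6 (-0.50).

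Of lysosomal proteases and proton pump genes, 7 of the 40 tested members were called higher and 14 lower (1 and 9 without the slide term, 1 to 4 and 10 to 13 in leave-one-out fits, 0 and 0 under median normalization). Tfe3, a transcription factor of lysosome genes, rose by 0.92 (adjusted p = 0.0006, a dim probe had the opposite sign). Cd63, a tetraspanin of late endosomes, was at 2.84 and 2.87 on the unstimulated arrays and 2.21 and 2.00 on the TLR2.CD86 arrays (-0.62, SE 0.070, adjusted p = 0.00168), and cathepsin B (Ctsb) fell by 0.70, where a dim probe had the opposite sign. Lamp1 was at -0.33, called with the slide term only. Of autophagy genes, 4 of the 32 tested members were called higher and 10 lower (0 and 5 without the slide term, 2 to 3 and 2 to 8 in leave-one-out fits, 0 and 0 under median normalization). Atg5, needed for LC3 lipidation, was at 2.44 and 2.40 on the unstimulated arrays and 1.90 and 1.73 on the TLR2.CD86 arrays (-0.52, SE 0.067, adjusted p = 0.00239), and Atg4c, Atg4a and Gabarapl1 fell by 0.80, 0.49 and 0.49. Sqstm1 was saturated and at 0.097. The shares called higher and lower, 17.5% and 35% of lysosomal and 12.5% and 31.2% of autophagy genes, stood beside 10.5% and 28.5% of all genes. Lysosome and autophagy calls were lost without unstimulated replicate 1 for Lamp1 (-0.32) and without TLR2.CD86 replicate 1 for Lamp1 (-0.35), Atg4c (-0.68) and Atg4a (-0.45).

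Identity and antigen receptor genes of the B cell were called in both directions, as all genes were (10.5% higher and 28.5% lower). Shares were 31.6% and 23.7% for fate regulators, 17.6% and 32.4% for receptor signalling, and 28% and 36% for inhibitory genes. Of fate regulators, 12 of the 38 tested members were called higher and 9 lower (5 and 4 without the slide term, 9 to 10 and 1 to 7 in leave-one-out fits, 3 and 0 under median normalization). Irf4, which directs activated B cells, was at 2.90 and 2.89 on the unstimulated arrays and 3.98 and 4.08 on the TLR2.CD86 arrays (1.08, SE 0.052, adjusted p = 0.000404), Batf was at 2.84 and 2.85 on the unstimulated arrays and 3.45 and 3.36 on the TLR2.CD86 arrays (0.64, SE 0.091, adjusted p = 0.00318), and Pim2 rose by 1.05. Pim3 (0.91), Spib (0.69) and Pax5 (0.40) were called higher with the slide term only, and Prdm1 (-0.49) and Xbp1 (-0.41) lower with it. Of B cell receptor signalling genes, 6 of the 34 tested members were called higher and 11 lower (0 and 2 without the slide term, 2 to 4 and 2 to 6 in leave-one-out fits, 0 and 0 under median normalization). Malt1, a paracaspase that links the receptor to NF-kB, was at 3.36 and 3.44 on the unstimulated arrays and 2.87 and 2.78 on the TLR2.CD86 arrays (-0.56, SE 0.069, adjusted p = 0.0021), and Vav3 fell by 0.50. Cd79a was at 0.53 and Syk at 0.75, called higher with the slide term only. Of inhibitory receptors and phosphatases, 7 of the 25 tested members were called higher and 9 lower (1 and 4 without the slide term, 1 to 6 and 4 to 6 in leave-one-out fits, 0 and 2 under median normalization). Ptpn12 and Ptpn22 fell by 0.72 and 0.55, the adaptor Pag1 rose by 0.69, Cd300a fell by 1.04 by 1 of 2 dim probes, and Fcgr2b was at -0.17 and not called. Of these, calls were lost without unstimulated replicate 1 for Prdm1 (-0.49), without TLR2.CD86 replicate 1 for Prdm1 (-0.66), Pax5 (0.37) and Pag1 (0.54), without unstimulated replicate 2 for Prdm1 (-0.49), Vav3 (-0.40) and Pag1 (0.56) and without TLR2.CD86 replicate 2 for Prdm1 (-0.38).

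Antigen presentation genes were also called in both directions, as all genes were (10.5% higher and 28.5% lower). The shares were 20% and 30% for class II, 37.5% and 20.8% for class I, and 4.76% and 28.6% for costimulatory genes. Of class II presentation genes, 4 of the 20 tested members were called higher and 6 lower (0 and 2 without the slide term, 0 to 4 and 3 in leave-one-out fits, 0 and 0 under median normalization). Cathepsin L (Ctsl) fell by 0.57, the transactivator Ciita was at 0.30, called higher with the slide term only, and another probe of Ciita was called lower. Of class I genes, 9 of the 24 tested members were called higher and 5 lower (1 and 3 without the slide term, 2 to 7 and 3 to 5 in leave-one-out fits, 0 and 0 under median normalization). The peptide transporter Tap2 rose by 0.47, the lipid-presenting Cd1d1 was at 3.45 and 3.43 on the unstimulated arrays and 2.72 and 2.52 on the TLR2.CD86 arrays (-0.72, SE 0.074, adjusted p = 0.00133), H2-T10 and H2-M3 fell by 0.43 and 0.40, and the B2m probe was saturated (0.078). Class I genes are close paralogs, and their probes may share signal. Of costimulatory genes, 1 of the 21 tested members was called higher and 6 lower (0 and 2 without the slide term, 1 and 1 to 3 in leave-one-out fits, 0 and 0 under median normalization). Cd86, the target of the antibody, was at 1.41 and 1.43 on the unstimulated arrays and 1.54 and 1.21 on the TLR2.CD86 arrays (0.060, SE 0.069, adjusted p = 0.552). Pdcd1 fell by 0.65 and Cd200 by 0.48, and Tnfsf9 (4-1BB ligand), below background on both unstimulated arrays, was at least 1.32-fold higher by the bound and not called (adjusted p = 0.0978). Presentation calls were lost without TLR2.CD86 replicate 1 for Ciita (0.32), H2-M3 (-0.32) and Cd200 (-0.42) and without unstimulated replicate 2 for Cd200 (-0.42).

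Genes of B cell position and motility had calls in both directions, as all genes had (10.5% higher and 28.5% lower). Shares were 27.8% and 33.3% for trafficking receptors and 17.2% and 31.0% for adhesion molecules. They were 15% and 40% for Notch2 and marginal zone genes, and 0% and 58.3% for regulators of G protein signalling. Of trafficking receptors, 5 of the 18 tested members were called higher and 6 lower (1 and 3 without the slide term, 5 to 6 and 2 to 5 in leave-one-out fits, 1 and 0 under median normalization). Ccrl2, an atypical chemerin receptor, was at 1.80 and 1.86 on the unstimulated arrays and 2.91 and 2.52 on the TLR2.CD86 arrays (1.08, SE 0.072, adjusted p = 0.000672). S1pr1, the egress receptor, was at 3.66 and 3.64 on the unstimulated arrays and 3.09 and 2.87 on the TLR2.CD86 arrays (-0.55, SE 0.087, adjusted p = 0.00484), and Cxcr4 and Ltb4r1 fell by 0.61 and 0.58. Ccr7 (0.79) and Cxcr5 (0.58), the receptors for the T zone and the follicle, were called higher with the slide term only. Of adhesion molecules, 5 of the 29 tested members were called higher and 9 lower (1 and 2 without the slide term, 1 to 4 and 4 to 7 in leave-one-out fits, 1 and 0 under median normalization), and Icam1 rose while Itgam and Cd9 fell by 0.77 and 0.67. Of Notch2 and marginal zone genes, 3 of the 20 tested members were called higher and 8 lower (0 and 6 without the slide term, 1 to 3 and 4 to 8 in leave-one-out fits, 0 and 0 under median normalization). Hey1, a Notch target, was at 0.096 and 0.039 on the unstimulated arrays and -0.80 and -1.13 on the TLR2.CD86 arrays (-0.95, SE 0.096, adjusted p = 0.0013), Cd1d1 and Cd9 fell as above, Myof fell by 0.50, and Notch2 itself was at -0.020 and not called, with probes of both signs. Of regulators of G protein signalling, which shorten chemokine receptor signals, 0 of the 12 tested members were called higher and 7 lower (0 and 4 without the slide term, 0 and 5 in leave-one-out fits, 0 and 0 under median normalization, 0 higher at an unadjusted p under 0.05 in limma). Rgs16 was at -0.15 and -0.27 on the unstimulated arrays and -0.92 and -1.13 on the TLR2.CD86 arrays (-0.77, SE 0.12, adjusted p = 0.00423), Rgs18, Rgs2 and Rgs12 fell by 0.63, 0.61 and 0.59, and Rgs1 was at -0.40, called with the slide term only. The S1pr1 call was lost without TLR2.CD86 replicate 1 (-0.51).

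Of actin cytoskeleton genes and their regulators, 8 of the 46 tested members were called higher and 11 lower (1 and 4 without the slide term, 4 to 7 and 5 to 9 in leave-one-out fits, 0 and 1 under median normalization). Beta-actin (Actb) rose by 0.60, and vimentin (Vim) and Tubb6 fell by 0.83 and 0.70. Dock8 fell by 1.03 by its brightest probe, and its other probes had the opposite sign and were not called. Of purinergic genes, 1 of the 15 tested members was called higher and 8 lower (0 and 5 without the slide term, 0 to 1 and 4 to 6 in leave-one-out fits, 0 and 2 under median normalization). Nt5e, the ectonucleotidase CD73, was at -1.56 and -1.73 on the unstimulated arrays and -2.60 and -2.49 on the TLR2.CD86 arrays (-0.94, SE 0.16, adjusted p = 0.00606), and adenosine kinase (Adk), P2ry6 and P2rx7 fell by 0.71, 0.74 and 0.83. Of DUSP phosphatases, 3 of the 17 tested members were called higher and 2 lower (2 and 2 without the slide term, 1 to 3 and 2 to 3 in leave-one-out fits, 0 and 0 under median normalization). Dusp14 and Dusp8 rose by 0.65 and 0.55, Dusp6 and Dusp10 fell by 0.47 and 0.42, and Dusp2 was at 0.33, called with the slide term only. Here calls were lost without unstimulated replicate 1 for Actb (0.54), without TLR2.CD86 replicate 1 for Actb (0.59), Nt5e (-0.90), Dusp14 (0.52) and Dusp2 (0.35), without unstimulated replicate 2 for Dusp14 (0.48) and Dusp2 (0.28) and without TLR2.CD86 replicate 2 for Dusp2 (0.31).

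Of immediate early genes, which respond first to a signal, 0 of the 21 tested members were called higher and 5 lower (0 and 3 without the slide term, 0 and 3 to 4 in leave-one-out fits, 0 and 0 under median normalization, 2 higher at an unadjusted p under 0.05 in limma, 3 and 5 under quantile normalization). Egr2 was at 4.06 and 4.13 on the unstimulated arrays and 3.50 and 3.26 on the TLR2.CD86 arrays (-0.62, SE 0.080, adjusted p = 0.00245), Fosl2 and Fos fell by 0.60 and 0.53, and Egr1 was at -0.42, called lower with the slide term only. Of quiescence genes, 3 of the 22 tested members were called higher and 4 lower (0 and 1 without the slide term, 2 and 2 in leave-one-out fits, 0 and 0 under median normalization). Tsc22d3, which encodes GILZ, fell by 0.45 (adjusted p = 0.00477), Ypel3 (0.59) and Klf3 (0.49) were called higher with the slide term only, and the brightest Klf2 probe was saturated on all 4 arrays and at 0.080, whereas a dimmer one was called lower. Of Kruppel-like factors, 1 of the 14 tested members was called higher and 2 lower (0 and 1 without the slide term, 1 and 2 in leave-one-out fits, 0 and 0 under median normalization). The erythroid factor Klf1 fell by 0.56 and Klf4 was at -0.49, called with the slide term only. Of interferon-stimulated genes, 7 of the 50 tested members were called higher and 11 lower (0 and 1 without the slide term, 1 to 5 and 3 to 4 in leave-one-out fits, 0 and 0 under median normalization), with a median of -0.21. Ifi27 fell by 0.54, Bst2 (-0.58) and Irf5 (0.53) were called with the slide term only, and Irf7 was at 0.064 and not called. Of the GIMAP GTPases, 2 of the 8 tested members were called higher and 0 lower (0 and 0 without the slide term, 0 to 2 and 0 in leave-one-out fits, 0 and 0 under median normalization, 0 lower at an unadjusted p under 0.05 in limma). Gimap6 (0.42) and Gimap4 (0.36) were called higher with the slide term only, and Gimap1 was at -0.068. Among these, calls were lost without TLR2.CD86 replicate 1 for Fos (-0.46), Ypel3 (0.64), Gimap6 (0.35) and Gimap4 (0.33), without unstimulated replicate 1 for Egr1 (-0.43) and Ypel3 (0.62), without unstimulated replicate 2 for Egr1 (-0.40) and Ypel3 (0.56) and without TLR2.CD86 replicate 2 for Ypel3 (0.57).

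The joint signal was also set against each single signal, each with 1 array per slide, so that the slide term altered the spread and not the differences. Against Pam2CSK4 alone 3.32% of genes were called higher and 7.77% lower with TLR2.CD86, and against anti-CD86 alone 2.7% and 4.75%. These comparisons share the TLR2.CD86 arrays. The 15 highest and 15 lowest genes were chosen by their values on the same arrays, which tilts their counts below in the chosen direction. Without the slide term limma called 5 probes higher and 15 lower against Pam2CSK4 (1864 and 1419 at an unadjusted p under 0.05). Leaving out TLR2.CD86 replicate 1 or 2 gave 84 or 54 higher probes in place of 1803. Of the 15 highest genes, 7 were higher than with Pam2CSK4 (Icam1, Pim1, Atcay, Tle6, Etv4, Hap1 and Unk), Il12b was lower and 7 were not called. None of these 8 calls held without the slide term or in every leave-one-out fit. Etv4 exceeded Pam2CSK4 by 0.88 (adjusted p = 0.00731) and anti-CD86 by 0.69 (adjusted p = 0.0104). Tle6 exceeded them by 0.90 (adjusted p = 0.0092) and 0.67 (adjusted p = 0.0169), and Icam1 by 0.37 (adjusted p = 0.0251) and 1.13 (adjusted p = 0.00107). Against anti-CD86, 13 of the 15 were higher, and 6 of the 15 were called in every leave-one-out fit and 6 without the slide term. Icam1 was among both sets of 6. Etv4 and Tle6 were in neither, with adjusted p of 0.204 and 0.417 against anti-CD86 without the slide term.

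Il12b, Cxcl1 and Nfkbiz were called higher than with anti-CD86 and not higher than with Pam2CSK4. Il12b was 0.65 lower than with Pam2CSK4 (log2, adjusted p = 0.0101) and 1.66 higher than with anti-CD86 (adjusted p = 0.000689). Cxcl1 differed from Pam2CSK4 by -0.41 (SE 0.21, adjusted p = 0.254) and exceeded anti-CD86 by 2.44 (adjusted p = 0.00394). Nfkbiz differed from Pam2CSK4 by -0.23 (SE 0.070, adjusted p = 0.0838) and exceeded anti-CD86 by 1.53 (adjusted p = 0.000691). Unk went the other way: it differed from anti-CD86 by -0.13 (SE 0.11, adjusted p = 0.487) and exceeded Pam2CSK4 by 0.63. Of the 15 lowest genes, 9 were lower than with Pam2CSK4 and 6 lower than with anti-CD86, Prss57 by 1.02 and 0.62, while Cpxm2 was 0.57 higher than with anti-CD86. In every leave-one-out fit 2 and 1 of these calls were kept, and 0 and 0 without the slide term.

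The counts for the lists rest on the slide term, without which 15 probes were lower than with Pam2CSK4 and 17 lower than with anti-CD86, and are read beside the shares of all genes above. Under these limits, oxidative phosphorylation genes were lower than with Pam2CSK4 in 21 of 81 and lower than with anti-CD86 in 2 of 81, with medians of -0.19 and -0.020. Over all genes these medians were -0.047 and -0.040. For mitochondrial ribosomal proteins the counts were 11 of 78 and 0 of 78, for mitotic genes 8 of 19 and 2 of 19, and for unfolded protein response genes 8 of 27 and 4 of 27. In the other direction, 1 and 2 oxidative phosphorylation, 0 and 0 mitochondrial ribosomal, 0 and 1 mitotic and 1 and 1 unfolded protein response genes were higher than with Pam2CSK4 and anti-CD86. Of NF-kB feedback genes 6 of 17 were higher than with anti-CD86 and 1 of 17 higher than with Pam2CSK4, and of cytokines 8 of 26 and 1 of 26. Lower calls in these lists numbered 0 and 0 for feedback genes and 0 and 4 for cytokines. Ribosome biogenesis genes were higher in 6 of 84 and 6 of 84, and lower in 0 and 1.

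**Figure D4:**
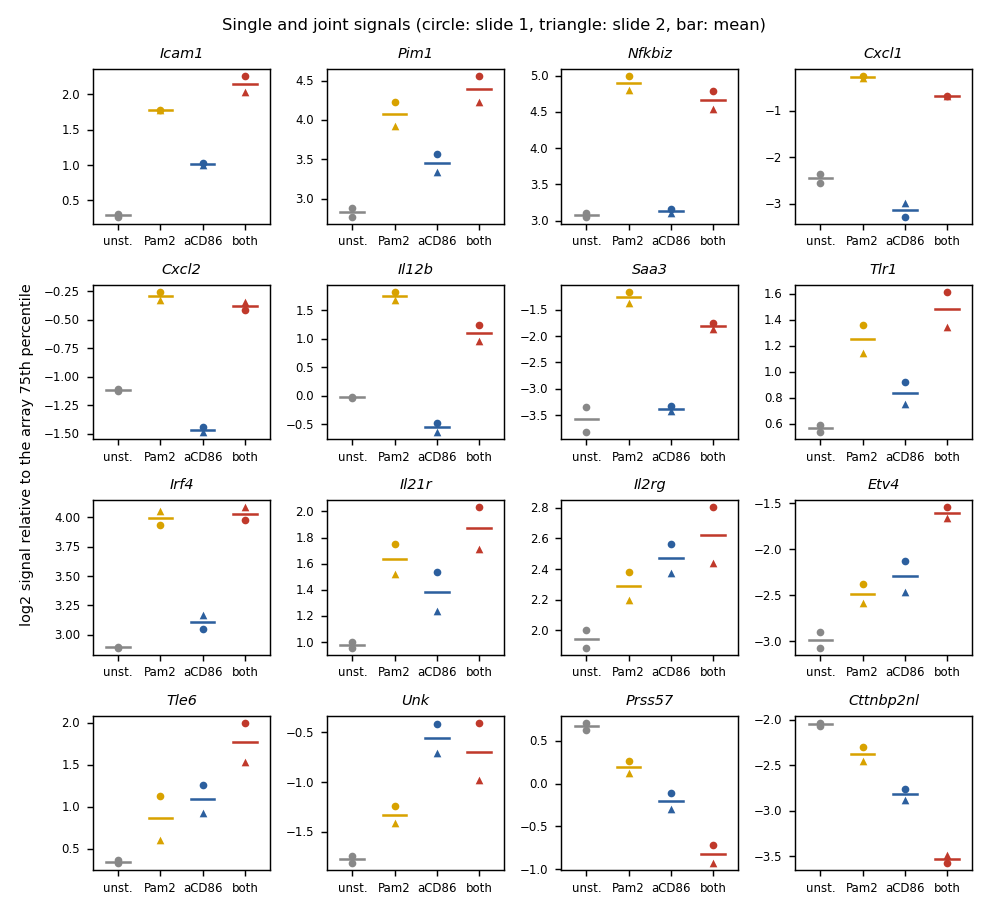
Log2 signal relative to the array's 75th percentile (y axis) of 16 named genes in unstimulated cells and with Pam2CSK4, anti-CD86 or both, with 2 arrays per group. Circles are slide 1, triangles slide 2 and bars the group means; Cxcl1 lies at -0.28 with Pam2CSK4, -3.12 with anti-CD86 and -0.69 with both, and Etv4 at -2.49, -2.29 and -1.60.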

How the data were processed

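RNA of RB cells in 6 conditions, 2 arrays each, was hybridised to 1-colour Agilent mouse arrays (Cy3). Per the labels and methods, the authors scanned the arrays on an Agilent scanner and read the images out with Feature Extraction, and the deposited intensity of a spot (the processed signal) is background-corrected and not scaled between arrays. A deposited table of the authors' log2 values matched log2 of the processed signal minus 1 constant per array and was an alternative. Here log2 intensity minus the 75th percentile of each array was used after control spots and outlier flags were left out. Tested were probes that passed the background flag on each array of at least 1 condition.

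All 12 arrays were fitted in limma 3.58.1 (R 4.3.3) with 6 condition coefficients and the slide, with Benjamini-Hochberg adjustment over 31596 probes and calls at an adjusted p under 0.05. Slide 1 held 8 arrays and slide 2 held 4. A gene was read from its brightest probe, and spots of 1 probe were averaged. Both probe p-values and counts rest on 2 arrays per group. The methods name a one way test, which was an alternative. Between 46.6% and 60.6% of spots were well above background, and the number of arrays limits the precision.

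The genes and the 50 pathway and 13 marker lists were chosen with earlier results of these data known. Named were the 15 highest and 15 lowest genes that the paper does not name, with a symbol, unsaturated and over background on all 4 arrays, not overlapping between groups and called with and without the slide term, those called in every leave-one-out fit first. Of each list the first member and up to 4 members by size meeting the same criteria were named (with fewer than 2, up to 2 called with the slide term alone), and marker genes well above background. Adsl, Birc3, Ccl5, Ccl9, Ccr7, Cxcr5, Ebi3, Gart, Il10, Il4ra, Mcl1, Mcm3, Nfkb2, Pim3, Relb, Rrn3, Spib, Syk, Tlr4, Tlr6, Tnfaip3, Tnfrsf13b, Traf3 and the genes given as bounds were added after their values were seen. Upstream sequences came from RefSeq (GRCm38.p6) and were matched by symbol, with 10238 of the 16662 genes found. The alternatives were the fit without the slide term, replicate blocks, other normalizations, background corrections and filters, the 4 arrays or slide 1 alone, and leaving out each of the 4 arrays. Python 3.11.15 with pandas 2.3.3 was used for tables. A few members of the lists are counted but not reported singly here.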

Additional observations from a re-analysis of the deposited data

How the results depend on the processing

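Against unstimulated cells 4579 probes were higher and 6505 lower of 31596. These counts were 1077 and 2332 without the slide term, 601 and 473 under median normalization, 2081 and 2677 with no filter on dim probes, 2849 and 3528 on slide 1 alone, 552 and 378 at a minimum of 2-fold, and 0 and 0 from the 4 arrays alone (5820 and 6842 at an unadjusted p under 0.05, with 1 residual degree of freedom). Leaving out 1 array gave 1902 to 3654 higher and 2882 to 4692 lower probes, with the fewest without TLR2.CD86 replicate 1. The methods' one way test gave 1871 higher and 3917 lower probes at its unadjusted threshold and 0 and 0 after Benjamini-Hochberg adjustment. The share of higher calls was 41.3% with the slide term and 56.0% under median normalization; the cause was not tested.

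The labels give the groups the same replicate numbers, and the differences between numbers correlated at -0.107 across probes in the 2 groups, which share only a number. With the replicate block in place of the slide term 2635 probes were higher and 5152 lower, and with the replicate block beside it 3963 and 5310. A crossed pairing in that block, added after seeing the data, gave 2624 and 5262.

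Against Pam2CSK4 1803 and 1659 probes were called. On slide 1 TLR2.CD86 and each single signal had 1 array, so that the counts on slide 1 alone decide nothing in these comparisons. Alternatives gave 5 and 15 without the slide term, 29 and 24 with the replicate block in its place, 994 lower with both, 43 and 34 under median normalization, 15 and 20 with no filter on dim probes, and 0 and 0 on slide 1 alone (3394 and 3065 unadjusted), with 54 to 84 higher and 33 to 52 lower when a TLR2.CD86 array was left out. Against anti-CD86 1207 and 1239 were called. The corresponding counts were 54 and 17, 93 and 29, 646 lower, 166 and 81, 94 and 26, and 0 and 1 (3029 and 2103 unadjusted), with 1962 and 2119 under normexp and 146 to 207 and 49 to 59 when an array was left out.

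Of the 309 named genes 243 were called. Of these calls all 243 were lost in the fit of the 4 arrays alone, 49 without the slide term, 20 with the replicate block in its place, 183 under median normalization, 47 with no dim filter, 32 on slide 1 alone and 54, 29, 25 and 10 without TLR2.CD86 replicate 1, unstimulated replicate 2, unstimulated replicate 1 and TLR2.CD86 replicate 2. No called gene turned sign. C1qc, not called at 0.11, was at -0.32 without TLR2.CD86 replicate 2 (limma adjusted p = 0.0417, against 0.0162 to 0.904 over its leave-one-out fits, and 0.81 without TLR2.CD86 replicate 1), and 33 of the 66 uncalled named genes changed sign under an alternative. With bounds in place of fitted values, list medians moved from 0.17 to 0.13 for cytokines and from -0.41 to -0.35 for regulators of G protein signalling.

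Precision is limited by 2 arrays per group and by a slide that both unstimulated arrays share. Median array intensities (17.3 to 51.3) lie near the lowest intensity well above background (19.5 to 32.9), so that values of dim probes are less certain, and a probe below background on both arrays of a group carries a bound at most there.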
